A study of Drosophila melanogaster with 16 samples.

Results

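The chemosensory receptor genes of Drosophila melanogaster comprise the odorant receptors (Or), the gustatory receptors (Gr) and the ionotropic receptors (Ir). They were chosen by gene symbol among the protein-coding genes of the fly's Release 6 annotation, an Or, Gr or Ir followed by a number and a letter, together with the odorant co-receptor Orco. The rule gave 180 of 13946 protein-coding genes, 60 in each family. The data are peak lists of 2 histone marks, H3K4me1 and H3K27ac, from heads of male wild-type flies of strain w1118 at day 50 and at day 10 of adult life. There was no other genotype and no drug, so age is the only factor between the groups, and the question is how the 2 marks lie over the receptor genes in old and in young heads. For each mark and age the labels name 2 immunoprecipitated samples and 2 inputs, 16 samples in 8 groups, each replicate made from 50 mg of heads whose nuclei were cut with micrococcal nuclease and briefly sonicated. The authors deposited 1 peak list per mark and age, and the peak names show that both replicates were pooled for it. There is therefore no spread between replicates and no test, every comparison of ages below sets 1 list against 1 list, and the sequencing depth is unknown.

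H3K4me1 is a mark of enhancers and of the flanks of active promoters, and H3K27ac marks active enhancers and promoters. Most olfactory neurons choose 1 or a few Or genes and pair the receptor with Orco, and Gr proteins detect tastants, or carbon dioxide in the antenna. Ir proteins, relatives of ionotropic glutamate receptors, serve smell, taste, temperature and humidity and work with the co-receptors Ir8a, Ir25a and Ir76b. The antenna, maxillary palp and labellum are parts of the head, but their sensory neurons are a small share of its cells and each receptor is used by few of them. In bulk heads, fewer cells that carry a mark and less of the mark per cell cannot be told apart.

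Heads were checked against marker genes of their main cell types. At day 50, against day 10, an H3K4me1 peak lay at 9 against 8 of 10 photoreceptor genes and at 7 of 7 general neuron genes at both ages. For glia the counts were 4 against 4 of 5 genes, for fat body 4 against 4 of 4 and for muscle 1 against 1 of 4. Markers of tissue that a head should not hold, testis and germline, had a peak at 4 against 3 of 5 genes. The cover of these markers moved with age as well. The mean percent of a region under H3K4me1 peaks was 29.5% at day 50 and 15.5% at day 10 for fat body genes, 18.5% and 23.3% for neuron genes, 16.3% and 16.1% for photoreceptor genes and 19.3% and 19.4% for glial genes. For testis and germline genes it was 15.6% and 15.3%, near that of photoreceptor genes. Muscle genes had 0.63% and 0.38%, and hemocyte (blood cell) genes, 2 of 4 with a peak at each age, 6.84% and 7.49%. The H3K27ac mean was 15.9% and 10.3% for fat body genes, 15.5% and 17.8% for neuron genes, 11.5% and 10.6% for photoreceptor genes and 15.7% and 11.9% for glial genes. For testis and germline genes it was 8.02% and 9.18%. The part of these cell types in the age differences of receptor genes was not tested.

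A gene's region was taken as its body plus 1000 bp on both sides, and a gene was counted as having a peak where a peak reached that region by at least 1 base. Of the 180 receptor genes, 57 had an H3K4me1 peak at day 50, or 31.7% (exact 95% interval 24.9 to 39.0%), and 58 at day 10, or 32.2% (25.5 to 39.6%). Among all protein-coding genes the shares were 73.8% at day 50 and 73.2% at day 10. For H3K27ac, 35 receptor genes had a peak at day 50, or 19.4% (13.9 to 26.0%), and 37 at day 10, or 20.6% (14.9 to 27.2%), beside 64.1% and 62.3% of all genes. In all 4 lists and both marks the receptor genes therefore stood far below the rest, and the number with a peak differed by 1 or 2 genes between ages. Counted over the 4 lists together, 71 receptor genes had any peak and 109 had none, 60.6% against 21.9% of all genes. In the other direction, 26 receptor genes had a peak in every list, 14.4% against 58.4%.

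By family, an H3K4me1 peak lay at 16 Or genes at day 50 and 17 at day 10, at 22 Gr genes at each age and at 19 Ir genes at each age. The Gr genes with a peak at both ages numbered 18, and the Ir genes 16. An H3K27ac peak lay at 9 Or genes at day 50 and 11 at day 10, at 14 and 15 Gr genes, and at 12 and 11 Ir genes. The exact intervals of the 3 families overlap for each mark and age. The Or and Ir genes in every list were Or2a, Or45b, Or67c, Or67d, Or85f, Orco, Ir8a, Ir21a, Ir25a, Ir31a, Ir60e, Ir62a, Ir76a, Ir85a and Ir93a, and 11 Gr genes completed the set of 26.

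Many of these peaks were shared with neighbours. Of the 117 distinct H3K4me1 peaks at receptor genes at day 50, 89 also reached the region of a protein-coding gene of another kind, and 74 of 98 did at day 10. For H3K27ac the counts were 39 of 52 at day 50 and 41 of 60 at day 10. No peak lay in the regions of 2 receptor genes at once. The fold enrichment of a peak over its background is the authors' own value. Its median was 2.60 at day 50 and 2.59 at day 10 for H3K4me1 peaks shared with a neighbour, and 2.35 and 2.28 for those that were not. For H3K27ac it was 2.94 and 2.78 for shared peaks, and 2.35 and 2.24 for unshared ones.

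The 160 protein-coding neighbours of another kind had peaks at shares near those of all genes. An H3K4me1 peak lay at 75.6% of them at day 50 and 74.4% at day 10, and an H3K27ac peak at 64.4% at each age. Receptor genes with such a neighbour, 103 in number, had an H3K4me1 peak in 41.7% at day 50 and 43.7% at day 10. The 77 receptor genes without one had it in 18.2% and 16.9%. For H3K27ac the shares were 28.2% and 31.1% with a neighbour, and 7.79% and 6.49% without. None of the 29 Ir genes without a neighbour had an H3K27ac peak at either age, which allows a share of up to 11.9% by the exact interval.

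Peak bases that belonged to a receptor's region and to no other protein-coding region were rarer still. They were found at 24 receptor genes (13.3%) for H3K4me1 at day 50 and at 22 (12.2%) at day 10, beside 44.7% and 43.8% of all genes. For H3K27ac they were found at 10 receptor genes (5.56%) at each age, beside 27.6% of all genes at day 50 and 25.2% at day 10. Of 35.2 kb of receptor regions under H3K4me1 peaks at day 50, 6.65 kb were such bases, and of 30.4 kb at day 10, 6.88 kb. Of 15.4 kb under H3K27ac peaks at day 50, 3.05 kb were such bases, and of 17.1 kb at day 10, 5.31 kb. The H3K27ac total was smaller at day 50 in receptor genes, and over all genes it was 5410 kb at day 50 and 5910 kb at day 10. Non-coding genes were not removed from these bases, and the regions of Or67c and Or45b hold lncRNA:CR44541 and asRNA:CR45281. The gap to other genes was smaller among regions shorter than 5 kb, counting bases outside every other non-receptor region. For H3K4me1 it was 12.1% of 157 receptor genes at each age, and 26.0% and 25.4% of 8472 other genes. For H3K27ac it was 5.10% of receptor genes at each age, and 12.8% and 10.7% of other genes.

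The summit, the point of strongest signal in a peak, lay inside the body of 24 receptor genes for H3K4me1 at day 50 and of 17 at day 10, against 62.2% and 60.8% of all genes. For H3K27ac it did so at 10 and 12 receptor genes, against 55.2% and 51.9%. For H3K4me1, 15 receptor genes at day 50 and 12 at day 10 had a summit that lay in no other protein-coding body, beside 55.2% and 53.9% of all genes. An H3K27ac summit did so at 7 and 9 receptor genes, beside 49% and 45.9%. At day 50 these 15 included the co-receptors Orco and Ir8a, the bitter receptors Gr32a and Gr66a, the ammonia receptor Ir92a, and Ir21a and Ir93a, which serve cool and humidity sensing. From a receptor's body the nearest H3K4me1 summit was a median of 2.36 kb away at day 50 and 2.44 kb at day 10, and the nearest H3K27ac summit 5.96 kb and 4.56 kb. Over all genes these medians were 0, a summit inside the body.

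Isolated genes, whose regions overlapped no other protein-coding region, gave a comparison without neighbours, in groups chosen after the values were seen. Of 37 isolated receptor genes, 29.7% (15.9 to 47.0%) had an H3K4me1 peak at day 50 and 24.3% (11.8 to 41.2%) at day 10, beside 47.0% and 48.2% of 1149 isolated other genes. For H3K27ac it was 10.8% (3.02 to 25.4%) of receptor genes at both ages, beside 25.6% and 26.3% of other genes. The shares lay closer together among isolated genes with regions shorter than 5 kb, 30 receptor genes and 663 others. In these an H3K4me1 peak lay at 30.0% of receptor genes (14.7 to 49.4%) at day 50 and 26.7% (12.3 to 45.9%) at day 10, and at 26.1% and 28.8% of other genes. An H3K27ac peak lay at 10.0% (2.11 to 26.5%) of receptor genes at both ages, and at 10.7% and 12.4% of other genes. The receptor intervals are wide and contain the shares of the other isolated short genes. Among short regions that did overlap another gene's, 127 receptor genes had an H3K4me1 peak in 32.3% at day 50 and 34.6% at day 10, and 7809 other genes in 68.8% and 67.9%. For H3K27ac the shares were 20.5% and 21.3% of receptor genes, and 59.7% and 57.4% of other genes.

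**Figure D1:**
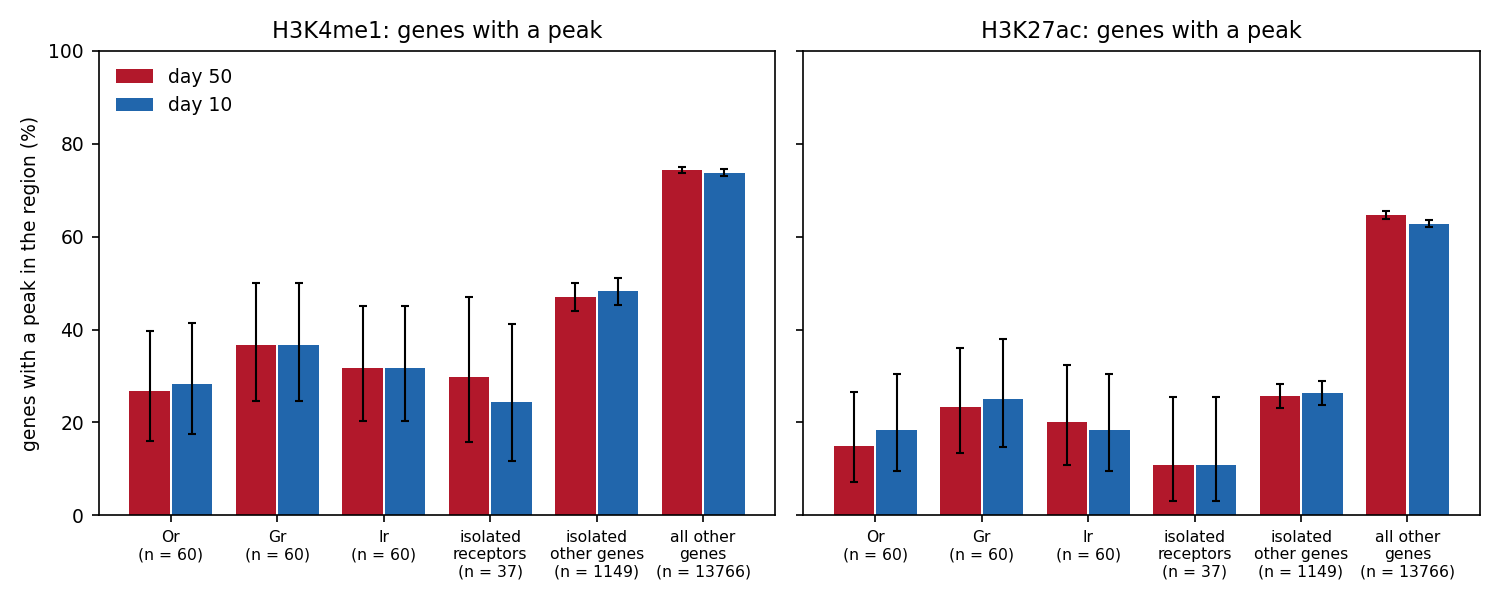
Percent of genes with a peak in their region, for H3K4me1 (left) and H3K27ac (right), with day 50 (red) left of day 10 (blue), in the Or, Gr and Ir genes (n = 60 each), isolated receptor genes (n = 37), isolated other genes (n = 1149) and all other protein-coding genes (n = 13766); error bars are exact 95% intervals that cover counting error only. For H3K4me1 at day 50 the families stand between 26.7% and 36.7%, the isolated other genes at 47.0% and all other genes at 74.3%.

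Tandem copies held fewer peaks than single receptor genes. Receptor regions that overlapped each other formed 26 groups with 72 genes, of which 14 genes had a peak in any list, 19.4%. Among the 108 receptor genes that stood alone it was 57, or 52.8%, beside 10888 of all 13946 genes. Of the tandem genes 40 had no neighbour of another kind, and 5 of these had a peak. Of the single genes 37 had none, and 13 of these had a peak. The part of neighbours in the difference was not tested. No peak in any list lay at 14 of the 26 groups. They include Or22a and Or22b, which detect fruit esters in the antenna, Or33a to Or33c, Gr36a to Gr36c, Ir52a to Ir52d and Gr98b to Gr98d. In the Gr64a to Gr64f array of sugar receptors, only Gr64f, a broadly used sugar co-receptor, had a peak, of H3K4me1 at both ages. All its peak bases also lay in the region of CG11593, and no summit lay in its body.

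Among the co-receptors, Orco carried both marks, Ir8a and Ir25a carried both in regions shared with neighbours, and Ir76b had no peak in any list. Orco (3R, 5407183 to 5412406) had 3 H3K4me1 peaks at each age, whose cover, the percent of the region under peaks, was 9.80% at day 50 and 12.2% at day 10, a difference that turned to 0.39 points with peaks of −log10 q, the authors' measure of a peak's significance, of at least 5. It had 1 H3K27ac peak at day 50 and 2 at day 10, and cover of 2.13% and 6.53%, a difference of -4.40 points that was -0.07 with the upper 50% of each list's peaks by that measure. The day 10 H3K27ac peak without a counterpart at day 50 had its summit 285 bp beyond the gene's end coordinate and a fold enrichment of 2.41. The H3K4me1 peak at the same place was called at both ages, with a fold of 3.17 at day 50 and 3.54 at day 10. The outermost Orco peak of each list also reached the region of CG14669.

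Ir8a (X, 9232726 to 9236585), the co-receptor of acid-sensing neurons, was covered by H3K4me1 peaks over 8.89% at day 50 and 1.84% at day 10, and by H3K27ac peaks over 8.11% and 7.37%. For Ir25a (2L, 4830846 to 4835300), the most widely used Ir co-receptor, the H3K4me1 values were 17.0% and 14.0% and the H3K27ac values 8.20% and 5.50%. Every one of these bases also lay in the region of a neighbour, CG12121 or mxc for Ir8a and Fnta, tank or CG15628 for Ir25a. Both genes were covered more at day 50 by both marks, and no peak base is theirs alone. With peaks of −log10 q of at least 5, the H3K4me1 difference of Ir8a was 3.04 points in place of 7.05, and that of Ir25a 10.74 in place of 2.97.

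Across all 180 genes, H3K4me1 peaks covered more of the region at day 50 in 31 and less in 35, beside 39.5% more and 36.7% less among all genes. H3K27ac peaks covered more in 22 and less in 17, beside 47.1% and 18.5%. The rest had equal cover, nearly always none. Of all genes with an H3K4me1 peak at either age, 51.7% were covered more at day 50 and 48% less, and of those with an H3K27ac peak 71.6% more and 28.1% less. The families divided differently. For H3K4me1, 5 Or genes were covered more and 13 less, 13 Gr genes more and 13 less, and 13 Ir genes more and 9 less. For H3K27ac it was 6 more and 5 less among Or genes, 6 more and 10 less among Gr genes, and 10 more and 2 less among Ir genes. Among genes with a peak at either age, the median difference in H3K4me1 cover, day 50 minus day 10, was -1.22 percentage points in Or, -0.05 in Gr and 3.00 in Ir genes, beside 0.15 over all genes. For H3K27ac it was 0.14, -1.28 and 0.69 points, beside 1.73. Whether the families differ was not tested, since each list has no replicate.

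**Figure D2:**
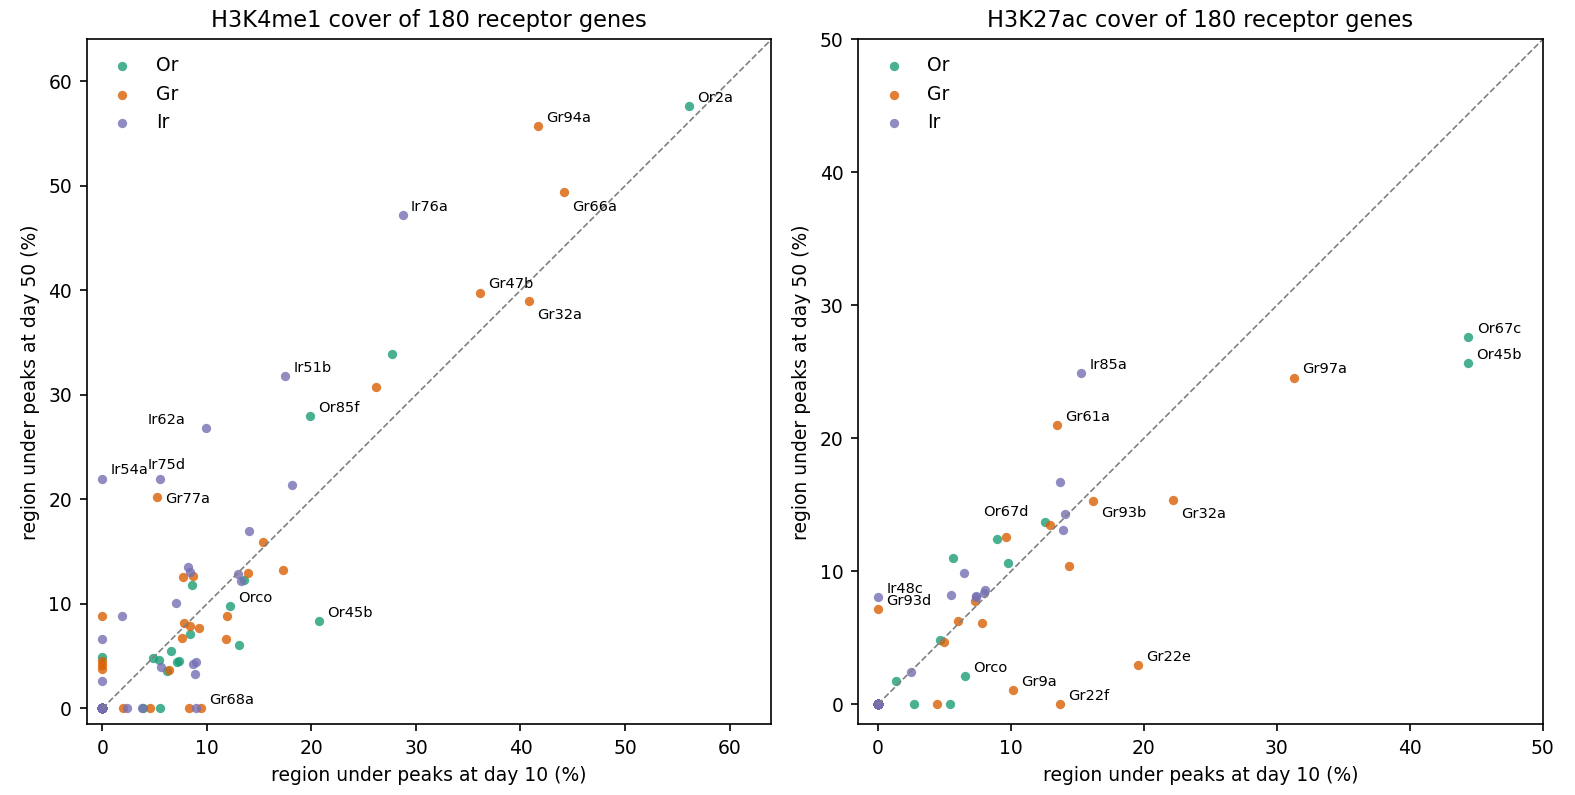
Percent of each receptor gene's region under peaks at day 50 (vertical axis) and day 10 (horizontal axis), for H3K4me1 (left) and H3K27ac (right); each point is 1 gene, coloured by family, and the dashed line marks equal cover. Ir76a, Ir62a, Ir75d and Ir54a lie above the line for H3K4me1, though not all do with the upper 50% of peaks, and Or67c, Or45b, Gr22e and Gr22f lie below it for H3K27ac.

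The Or genes with the widest cover were Or2a for H3K4me1 and Or67c and Or45b for H3K27ac. Or2a, an antennal receptor, had H3K4me1 cover of 57.7% at day 50 and 56.1% at day 10, all of it shared with fs(1)K10 and crn, and H3K27ac cover of 11.0% and 5.66%, which did not differ with the upper 50% of peaks. Or67c (3L, 10243320 to 10244706), an antennal receptor with no protein-coding neighbour of another kind but with lncRNA:CR44541 in its region, had H3K27ac cover of 27.6% at day 50 and 44.4% at day 10. These were 935 and 1504 bp in 4 and 5 peaks, the most H3K27ac bases of any receptor gene outside other protein-coding regions. The 4 peaks of day 50 each overlapped one of day 10 and were narrower. The fifth peak of day 10 reached the region by 15 bp, and it too overlapped a day 50 peak, one that lay outside the region.

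Or67d (3L, 10273204 to 10274624), the receptor of the male pheromone cis-vaccenyl acetate, had H3K27ac cover of 13.7% at day 50 and 12.6% at day 10. Its strongest peak in every list had a summit between 677 and 690 bp before the gene's start coordinate. The H3K27ac fold there was 2.43 at day 50 and 3.01 at day 10, and the H3K4me1 fold 2.58 and 2.86. A second H3K27ac peak lay in the body, 137 bp from the start coordinate at day 50 and 154 bp at day 10, with no H3K4me1 peak over it.

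Or45b, a receptor of larval olfactory neurons, had H3K27ac cover of 25.7% at day 50 and 44.4% at day 10, of which 501 and 976 bp were outside the region of its neighbour Alp6. Its H3K4me1 cover was 8.33% and 20.7%. At both marks a peak inside the body was called at day 10 alone, with an H3K27ac fold of 1.82 and an H3K4me1 fold of 2.19. Both of these peaks are weaker than the one before the gene, which all 4 lists hold with folds between 3.33 and 3.79. With peaks of −log10 q of at least 5, the H3K4me1 difference of Or45b was -1.38 points in place of -12.36, and that for H3K27ac -13.05 in place of -18.7.

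Or genes were sorted by organ from general knowledge, each into 1 list only, so a receptor used in several organs counts in 1 of them. By these lists, 10 of 38 Or genes of the adult antenna had an H3K4me1 peak at day 50 and 9 at day 10, beside 73.8% and 73.2% of all genes. Of 7 genes of the maxillary palp it was 2 at each age, and of 14 larval genes 3 and 5. The 5 genes of the larval list with a peak, Or45b, Or59a, Or63a, Or94a and Or94b, were covered less at day 50. For Or94b it was by 2 bp, with 158 bp at day 50 and 160 bp at day 10. Those of the antenna split into 4 covered more and 6 less. Among all genes with a peak at either age 48% were covered less. For H3K27ac the counts with a peak were 6 and 6 in the antenna, 1 and 2 in the palp, and 1 and 2 in the larval list. Among all genes the H3K27ac shares were 64.1% and 62.3%. The difference between these lists was not tested. Or9a of the antenna had H3K4me1 cover of 6.04% and 13.1%, a difference of -7.05 points that was -2.18 with peaks of −log10 q of at least 5.

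Among Gr genes both taste classes held marked and unmarked members. Of 13 bitter receptors, 6 had an H3K4me1 peak at each age, but only 4 at both, and 4 had an H3K27ac peak at both ages. Of 9 sugar receptors, 4 had an H3K4me1 peak at both ages, and 1 at day 50 and 2 at day 10 an H3K27ac peak. Beside these stand 73.8% and 73.2% of all genes with an H3K4me1 peak, and 64.1% and 62.3% with an H3K27ac peak. Gr66a (3L, 8305336 to 8306980), a receptor needed in most bitter neurons, had H3K4me1 cover of 49.4% at day 50 and 44.1% at day 10, all shared with CG7194, Sbp2 or BI-1. Gr32a (2L, 11114014 to 11115823), which acts in bitter taste and in male avoidance of other males, had 39.0% and 40.8%, with 314 and 573 bp outside its neighbours. Its H3K27ac cover was 15.4% and 22.2%. Gr47b, beside ix and san, had H3K4me1 cover of 39.8% and 36.1%, with 453 and 155 bp outside its neighbours. Gr97a, beside Tsp97E and CG5521, had the widest H3K27ac cover among Gr genes at day 10, 24.6% at day 50 and 31.3% at day 10, all of it shared.

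Gr22e (2L, 1784062 to 1785286), found in most bitter neurons and free of neighbours of another kind, differed most between ages among Gr genes for H3K27ac. It had 1 peak at day 50, of which 95 bp lay in its region, and 3 peaks and 630 bp at day 10. The shared peak lay at the edge of the region, beyond the gene's end coordinate, and the peak in the body was called at day 10 alone with a fold of 2.36. Gr22f nearby had no H3K27ac peak at day 50 and 13.7% cover at day 10, while its H3K4me1 cover was 12.6% and 8.69%. Gr22d had a single H3K4me1 peak, at day 10, and the rest of its tandem group, Gr22a to Gr22c, had no peak in any list. With peaks of −log10 q of at least 5, Gr22f had no H3K27ac difference, and with the upper 50% that of Gr22e was -3.29 points in place of -16.59.

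The Gr93 array on 3R was marked at its ends. Gr93b (21842521 to 21843765) had 2 H3K4me1 and 2 H3K27ac peaks at each age, before and across its start coordinate, with folds between 1.78 and 2.82. Its H3K27ac cover was 15.3% at day 50 and 16.1% at day 10. Gr93c had no peak. Beyond Gr93d (21845454 to 21846659) both marks had a peak at day 50 alone, with a fold of 2.52 for H3K4me1 and 1.79 for H3K27ac. Gr93d was the only receptor gene with a peak at day 50 alone for both marks, and its region also holds the non-coding gene asRNA:CR44087.

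**Figure D3:**
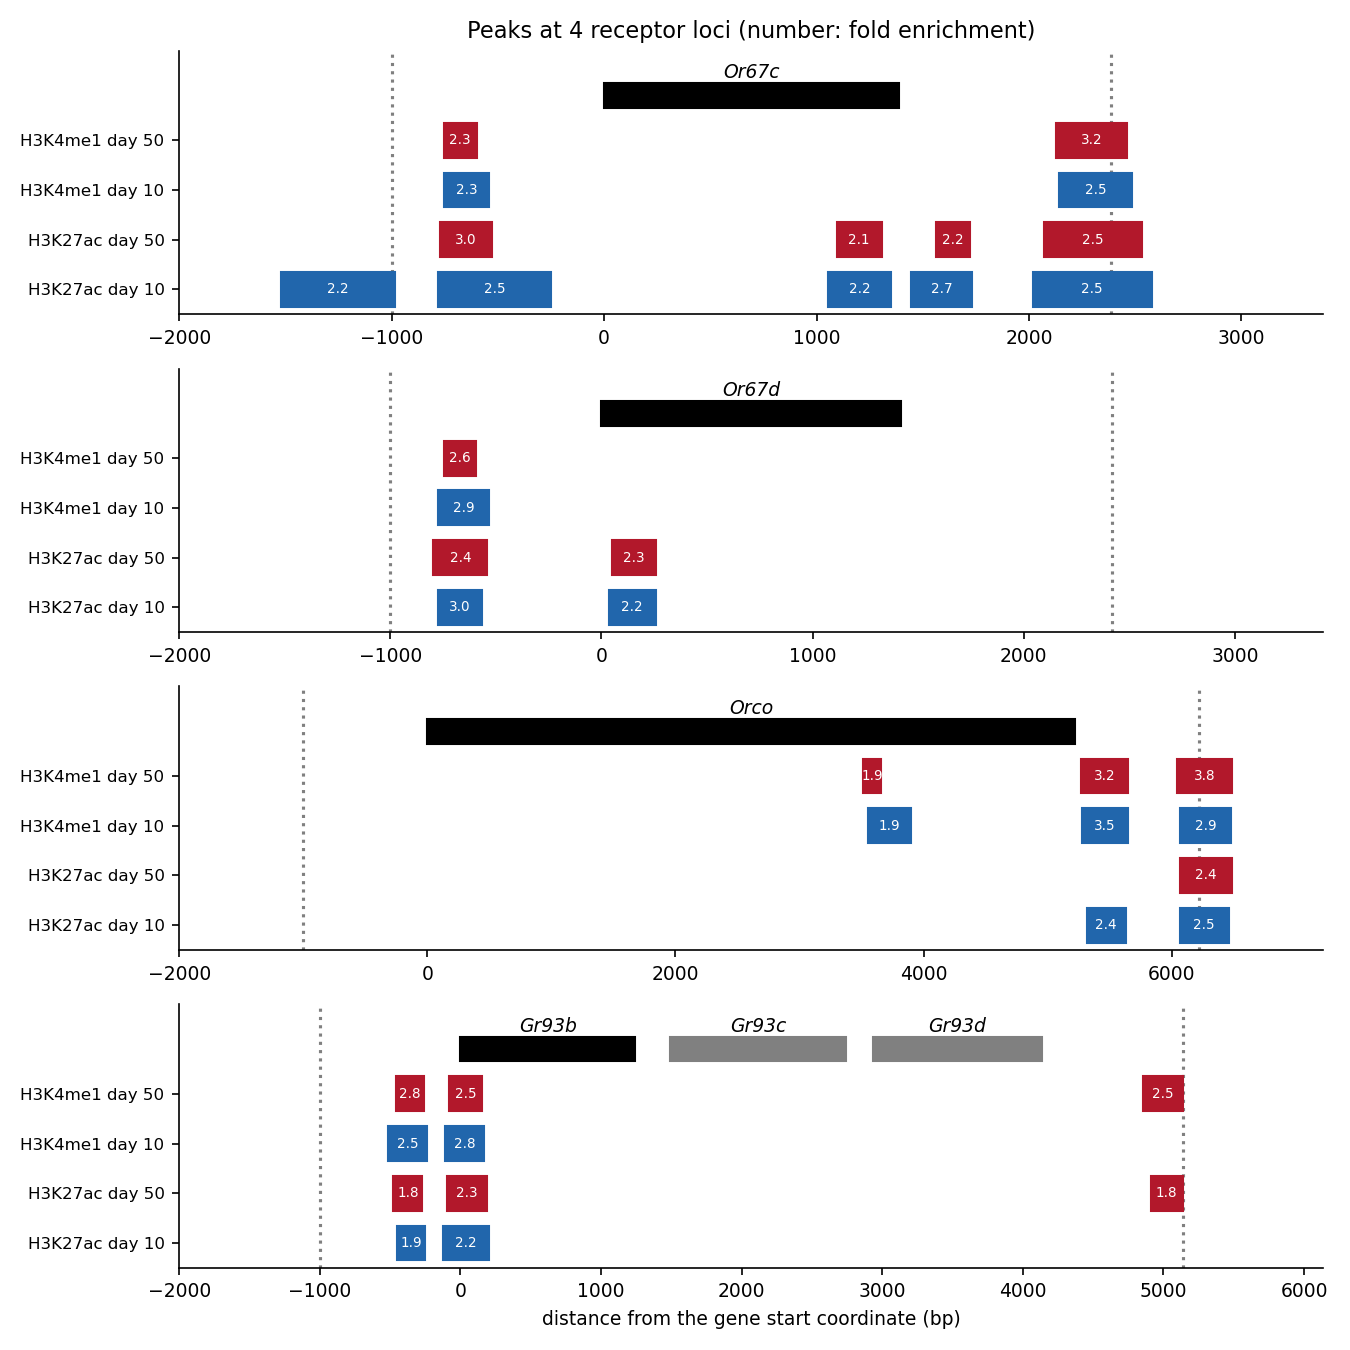
Peaks at Or67c, Or67d, Orco and the Gr93b to Gr93d array, drawn to scale as distance in bp from the gene's start coordinate; boxes are peaks, in rows by mark with day 50 above day 10, the number in a box is its fold enrichment, black and grey bars are gene bodies, dotted lines bound the regions counted, and only peaks that reach these regions are drawn. Or67c has 4 H3K27ac peaks at day 50 and 5 at day 10, Orco 1 and 2, and the Gr93d peaks appear in the day 50 rows alone.

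Other Gr genes with large differences shared their peaks. Gr94a, which lies inside p53, had H3K4me1 cover of 55.7% at day 50 and 41.6% at day 10. Gr77a beside CG13252 had 20.3% and 5.23%. Gr61a, of the sugar receptor family, had H3K27ac cover of 21.0% and 13.4%. Of the carbon dioxide receptor pair, Gr63a had a peak in all 4 lists, with H3K4me1 cover of 7.93% and 8.40%, and Gr21a had none in any. For Gr5a, the trehalose receptor, an H3K27ac peak was called at day 10 alone, and for Gr9a the H3K27ac cover was 1.08% at day 50 and 10.1% at day 10. With the upper 50% of each list the differences were 10.12 points in place of 15.04 for Gr77a, 1.36 in place of 7.58 for Gr61a, and 0 for Gr9a.

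The Ir genes with the largest differences were covered more by H3K4me1 at day 50, in regions shared with neighbours. Ir54a had H3K4me1 cover of 22.0% at day 50 and none at day 10, in 3 peaks with folds up to 3.04, all in the region of Vps50 or sub. Ir76a, an antennal amine receptor, had 47.2% and 28.7%, in 8 peaks at day 50 and 5 at day 10, with 209 bp at day 50 outside its neighbours. Ir62a had 26.8% and 9.92%, beside Iml1. Ir75d, another antennal receptor, had 21.9% and 5.48%, beside Prp6 and COX6AL2. When only the stronger 50% of a list's peaks, ranked by −log10 q, were kept, these differences became smaller, 0 or reversed. That of Ir76a was then -1.04 points, those of Ir62a and Ir75d were 0, and that of Ir54a was 9.35. Among 17 antennal Ir genes 9 had an H3K4me1 peak at day 50 and 8 at day 10, with 7 covered more and 2 less, beside 73.8% and 73.2% of all genes with a peak and 51.7% of marked genes covered more. For H3K27ac 6 had a peak at each age, with 5 covered more and 1 less, beside 64.1% and 62.3% with a peak and 71.6% of marked genes covered more. Ir68b had no H3K4me1 peak at day 50 and 8.98% cover at day 10, and its H3K27ac cover was 13.1% and 13.9%. Ir85a, which lies inside Pif1A and Pif1B, had the widest H3K27ac cover of the Ir genes, 24.9% and 15.3%, but with the upper 50% of each list it had no peak at day 50 and the difference turned to -15.29 points. Ir31a, an antennal receptor in a crowded stretch with CG17768, LSm-4, Ip259 and RpS27A, had H3K27ac cover of 16.7% and 13.7%, and H3K4me1 cover of 3.28% and 8.89%. For H3K27ac, Ir48c was the Ir gene with a peak at day 50 alone, with 8.03% cover in a region shared with ths.

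Peaks at 1 age alone made up a larger share of the marked receptor genes than of marked genes in all. For H3K4me1, 17 of 66 receptor genes with a peak at either age had it at 1 age alone, 25.8% (15.8 to 38.01%), beside 7.59% of all such genes. The H3K27ac count was 6 of 39, 15.4% (5.86 to 30.5%), beside 7.86%. Receptor genes were not alone in this. Of 228 isolated other genes with short regions and an H3K4me1 peak, 37 had it at day 50 alone and 55 at day 10 alone. For H3K27ac it was 17 and 28 of 99. Among marked odorant-binding protein genes it was 4 and 2 of 24 for H3K4me1, and 6 and 2 of 21 for H3K27ac. Among cytochrome P450 genes it was 10 and 3 of 64, and 11 and 2 of 48. Of all 180, an H3K4me1 peak at day 50 alone was found at 8 receptor genes, 4.44%, beside 3.21% of all genes, and at day 10 alone at 9, 5.00%, beside 2.6%. The 8 were Or47a, Gr28a, Gr93a, Gr93d, Gr98a, Ir48b, Ir54a and Ir92a. The 9 were Or59a, Or94a, Gr22d, Gr22e, Gr47a, Gr68a, Ir11a, Ir56d and Ir68b. H3K27ac peaks at day 50 alone were found at 2, Gr93d and Ir48c, 1.11% beside 3.49%, and at day 10 alone at 4, Or45a, Or59c, Gr5a and Gr22f, 2.22% beside 1.68%. No gene appeared in opposite directions for the 2 marks. Ir92a had 1 peak of 1.89-fold at day 50 and Ir48b 1 of 1.75-fold, beside 1.47-fold for the weakest peak at a receptor gene in that list. Gr68a, a pheromone receptor of the male foreleg, had 1 of 2.16-fold at day 10, which covered 9.43% of its region and all of which lay in that of loaf. Gr47a, of bitter neurons, had 1 of 2.15-fold at day 10, with 8.26% cover in regions of its neighbours SLO2 and CG43396. With peaks of −log10 q of at least 5, the differences of Gr68a and Ir68b for H3K4me1 were 0, and with the upper 50% that of Gr47a was too.

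**Figure D4:**
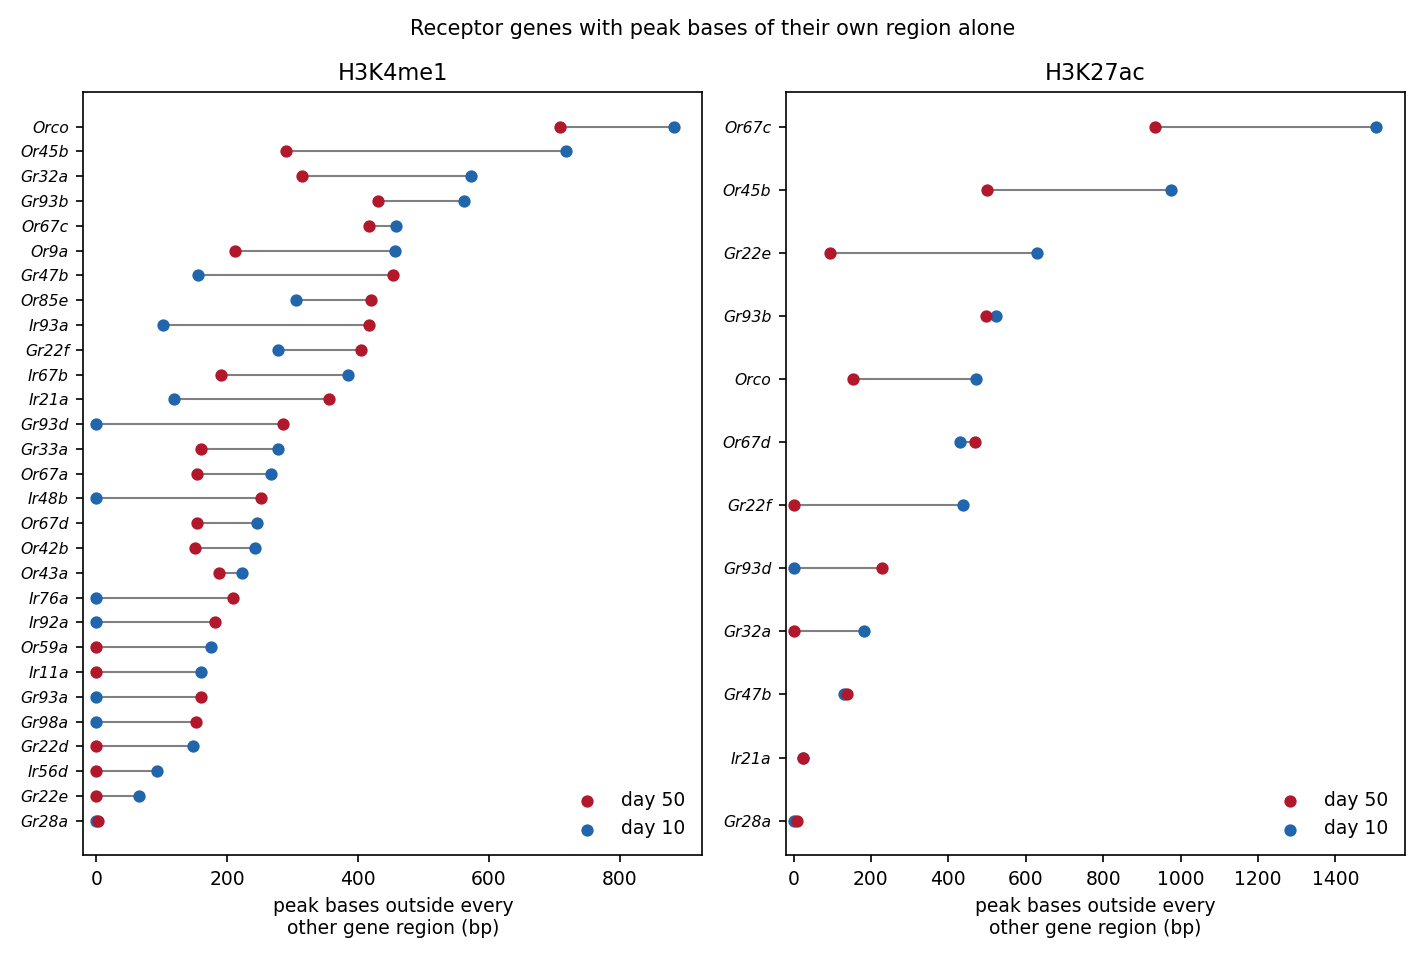
Bases under peaks that lie in a receptor gene's region and in no other protein-coding region, at day 50 (red) and day 10 (blue), for H3K4me1 (left) and H3K27ac (right); each row is 1 gene and the line joins its 2 values. Or67c holds 935 bp at day 50 and 1504 bp at day 10 under H3K27ac, and Orco holds 708 and 882 bp under H3K4me1.

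Receptor peaks recurred at the other age less often than the full list for H3K4me1 at day 50, and more often, in part by little, in the other lists. These shares rest on few peaks and carry no interval, and their differences were not tested. Of the day 50 H3K4me1 peaks at receptor genes, 81 of 117 overlapped a day 10 peak, 69.2%, beside 83.2% of the full list, and of the day 10 peaks 83.7%, beside 79.4%. For H3K27ac, 90.4% of day 50 receptor peaks overlapped a day 10 peak, beside 80.0% of the list, and 78.3% of day 10 ones overlapped a day 50 peak, beside 76.0%. Receptor peaks were of ordinary strength, with a median fold for H3K4me1 of 2.53 at day 50 and 2.51 at day 10, beside 2.58 and 2.53 over the lists. For H3K27ac it was 2.69 and 2.56, beside 2.61 and 2.49. Receptor genes with an H3K4me1 peak also had an H3K27ac peak in 50.9% at day 50 and 53.4% at day 10, beside 84.2% and 82.3% of all genes. Many receptor regions with the first mark thus lacked the second. This was not particular to receptor genes. Of 1149 isolated other genes, 540 had an H3K4me1 peak at day 50 and 294 an H3K27ac peak, and at day 10 554 and 302. Of the 663 with short regions it was 173 and 71 at day 50, and 191 and 82 at day 10.

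Other large or related gene families were set beside the receptor genes. Of 83 cytochrome P450 genes, which detoxify and often lie in tandem, 73.5% had an H3K4me1 peak at day 50 and 65.1% at day 10, and 55.4% and 44.6% an H3K27ac peak. Of 51 odorant-binding protein genes, whose products are made by support cells of the sensilla, 43.1% and 39.2% had an H3K4me1 peak, and 37.3% and 29.4% an H3K27ac peak. Of 29 pickpocket channel genes, 51.7% and 55.2% had an H3K4me1 peak, and 37.9% and 31.0% an H3K27ac peak. The exact intervals of the P450 genes lay above those of the receptor genes for both marks at both ages, the nearest being 33.7 to 55.9% for H3K27ac at day 10. The interval of the odorant-binding protein genes overlapped that of the receptor genes in all 4 lists. That of the pickpocket genes overlapped it in all 4 lists as well, with 32.5 to 70.6% for H3K4me1 at day 50. The differences between families were not tested. These families were chosen after receptor values were seen.

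Genes that work with the receptors or choose them were described by lists drawn up with earlier results known, beside which stand 73.8% and 73.2% of all genes with an H3K4me1 peak and 64.1% and 62.3% with an H3K27ac peak. Of 18 partners of olfactory neurons and sensilla, 10 had an H3K4me1 peak at each age, and 9 at day 50 and 7 at day 10 an H3K27ac peak. Among them Amt had H3K4me1 cover of 23.6% at day 50 and 9.26% at day 10, Obp99b 30.1% and 16.8%, and Obp83a 18.6% and 28.7%. The H3K27ac cover of lush, an odorant-binding protein needed for the pheromone response through Or67d, was 14.1% and 6.85%. These regions overlap those of other genes, among them Hsc70-4 for Amt, Obp99d for Obp99b, Obp83b for Obp83a and Lon for lush. Of 8 genes in a list of taste channels, 4 had an H3K4me1 peak at day 50 and 5 at day 10. The list also holds Poxn, which is a transcription factor and not a channel, and which had 3 and 4 H3K4me1 peaks. Among the channels, ppk28, the water taste channel, had H3K4me1 cover of 37.0% at day 50 and 3.53% at day 10. Its region overlaps that of CG13005, and the cover of partner and channel genes was not followed under other peak settings. Of 14 transcription factors that pattern receptor choice, 13 had an H3K4me1 peak at each age, 3 with more and 10 with less cover at day 50, beside 51.7% and 48% of marked genes, and 7 and 6 had an H3K27ac peak. Examples are en, which patterns antennal neuron fates, with H3K4me1 cover of 42.7% and 31.0%, ato, with 48.3% and 55.5%, and acj6, with 6.08% and 8.60%. Regions of these factors run from 2786 bp for amos to 70791 bp for pdm3, beside a median of 4161 bp over all genes. Longer regions are more easily reached by a peak, so their share with a peak is not matched for length.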

How the data were processed

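Heads of male w1118 flies were profiled by ChIP-seq. The submitters' processing notes name MACS2 2.1.1, STAR 2.5.3a, deepTools, Trim Galore and FastQC, and genome build BDGP6. The peak names carry the word nomodel, a MACS2 option; other settings were not given in the sources used here. The deposited files are 4 MACS2 narrowPeak lists, which the authors made from both replicates of a mark and age pooled. They give for each peak a score, a fold enrichment (a ratio over background), a −log10 q value and the summit's offset from the peak start, all as deposited by the authors. The weakest peaks have a −log10 q of 1.30.

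Genes came from a RefSeq table of Release 6, which gives start and end but no strand, so starts are coordinates, not transcription starts. Computed here were peak overlaps with each gene body plus 1000 bp (at least 1 base), the percent of that region covered, bases outside every other protein-coding region, and summits in bodies. A neighbour of another kind is a protein-coding, non-receptor gene whose region, formed the same way, overlaps the receptor's. The lists hold 34 peaks off the main sequences in all, which were left out. Exact Clopper-Pearson 95% intervals cover counting error only, and overlapping regions are not independent. Depth is unknown. Nothing was tested, as each mark and age has 1 list.

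Named genes are, per mark, the 6 with the widest cover at each age, the 5 with the largest difference each way, those with a peak at 1 age alone where 10 or fewer, the 5 with the most bases outside neighbours, the co-receptors, and up to 3 of each partner list; a few others illustrate a group and were chosen after their values were seen. Members and lists were chosen with earlier results of these data known. Alternatives were the q threshold, the upper 50% of peaks, equal list lengths, other flanks and a larger overlap. The scripts (Python 3.11.15, NumPy 2.4.6, pandas 2.3.3, SciPy 1.17.1) were checked on simulated data.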

Additional observations from a re-analysis of the deposited data

How the results depend on the processing

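No paired analysis was possible because each list pools both replicates, and no replicate could be left out. Over 20 counts and their alternatives, 82 of 124 values stayed within 1.5 times the reported one and 42 did not; the share of receptor genes with a peak was below that of all genes under every setting, mark and age. Of 196 alternative values of 28 single-gene differences, 99 stayed within a set margin, 93 moved beyond it and 4 reversed. That margin was built from exact 95% intervals of the bases under peaks out of the region's length at each age. It treats adjacent bases as independent, which they are not, and measures no spread between replicates. Of the 28 differences, 10 became 0 with the upper 50% of peaks, 4 with the q threshold and 10 with the gene body alone. The cause of each shift was not tested, beyond the fewer bases or peaks that a setting counts.

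With the gene body alone, the receptor genes with a peak were 25 at day 50 and 18 at day 10 for H3K4me1, and 10 and 12 for H3K27ac. Cover was greater at day 50 in 19 and smaller in 8 for H3K4me1, and greater in 6 and smaller in 7 for H3K27ac. H3K4me1 peaks at day 10 alone were 2, H3K27ac peaks at day 50 alone 1, and H3K4me1 bases outside neighbours at day 10 lay at 13 genes. With 500 bp flanks, 38 had an H3K4me1 peak at day 10, H3K4me1 cover was smaller at day 50 in 20, H3K27ac cover was greater in 14, and H3K27ac peaks at day 50 alone were 0 and at day 10 alone 7. With 2000 bp flanks, H3K27ac cover was smaller at day 50 in 27 and peaks at day 10 alone were 10.

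With the upper 50% of each list, 32 genes had an H3K4me1 peak at day 50 and 29 at day 10. H3K4me1 cover was greater at day 50 in 18 and smaller in 17, H3K27ac cover was smaller in 11, and peaks at day 10 alone were 4 for H3K4me1 and 2 for H3K27ac. Bases outside neighbours lay at 10 genes at each age for H3K4me1 and at 6 at day 10 for H3K27ac. Receptor bodies under a summit, shared or not, numbered 11 at day 50 and 10 at day 10 for H3K4me1, and 3 and 4 for H3K27ac. With peaks of −log10 q of at least 5, H3K4me1 cover was smaller at day 50 in 21, peaks at day 10 alone were 4 for H3K4me1 and 1 for H3K27ac, H3K27ac peaks at day 50 alone were 5, and bodies under an H3K4me1 summit 13 at day 50 and 11 at day 10. With a peak counted only where at least 50% of it lay in the region, H3K4me1 peaks at day 50 alone were 13, and H3K27ac peaks at day 50 alone 1 and at day 10 alone 7. With equal numbers of peaks, H3K27ac peaks at day 10 alone were 2.

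With the upper 50%, the difference in cover, day 50 minus day 10, was -1.041 points for Ir76a (H3K4me1) and -15.29 for Ir85a (H3K27ac), which then had no peak at day 50. For Orco (H3K4me1) it was 0.3876 under that setting and under the q threshold. Counts of peaks at 1 age alone and single-gene differences, large ones included, thus depend on the settings, and unknown depth limits both.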
